A study of Mus musculus with 35 samples.

Results

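The transcription factor genes followed here mark the lining of the airway, and their RNA was measured through tracheal transplantation in mice: Foxa1, Foxa2, Nkx2-1, Sox2, Trp63, Klf5, Elf3, Ehf and Grhl2. All 9 were measured, by 17 of the 22626 probe sets of the array that are not controls, each of the 17 annotated to exactly 1 of these genes. RNA came from whole tracheal tissue on 35 arrays, 5 in each of 7 groups. Allografts were tracheas placed heterotopically into recipients incompatible at the MHC and taken at day 4, day 14 or day 25, isografts were tracheas placed into MHC-compatible recipients for the same times, and native tracheas were never transplanted. The strains, sexes and ages of donors and recipients and the number of animals behind an array are not given in the sources used here, so the spread between the 5 arrays of a group may be partly technical. Values are GCRMA log2 values, and a difference of 1 stands for a 2-fold change in signal. Because a graft was measured whole, fewer cells of a type and less RNA per cell cannot be told apart.

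The mouse trachea is lined by a pseudostratified epithelium of basal, secretory and ciliated cells. Forkhead factors of the FOXA family open closed chromatin in endoderm-derived epithelia, Nkx2-1 is a homeobox factor of lung and thyroid, and Sox2 keeps the identity of the conducting airways. Trp63 maintains basal cells, Klf5 is a Krüppel-like zinc finger factor of dividing epithelial cells, Elf3 and Ehf are epithelial members of the ETS family, and the grainyhead factor Grhl2 drives genes of cell junctions.

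A promoter window was found for 5 of the 9 genes and for 8 of the 15 genes of a list of targets reported for these factors. Both windows printed here cover the 250 bases before an annotated start, from RefSeq on GRCm38.p6, and they are shown because one belongs to the member that fell furthest and the other to a reported Grhl2 target that fell with it. Capitals mark a match to the FOXA motif TGTTTNC in Foxa1 and to the grainyhead motif AACCNGTT in Rab25, and each is written 5′ to 3′ on the strand of its gene. The Foxa1 window lies at chr12:57546112-57546361 on the minus strand and the Rab25 window at chr3:88548280-88548529 on the minus strand. The Foxa1 window falls inside the annotated span of its gene (57540628 to 57548029), so it precedes an internal start and not the outermost one.
Foxa1: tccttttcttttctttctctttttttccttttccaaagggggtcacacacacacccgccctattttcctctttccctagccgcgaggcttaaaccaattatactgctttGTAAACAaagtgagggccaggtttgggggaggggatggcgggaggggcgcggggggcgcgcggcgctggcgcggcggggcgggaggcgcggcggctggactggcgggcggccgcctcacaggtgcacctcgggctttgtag
Rab25: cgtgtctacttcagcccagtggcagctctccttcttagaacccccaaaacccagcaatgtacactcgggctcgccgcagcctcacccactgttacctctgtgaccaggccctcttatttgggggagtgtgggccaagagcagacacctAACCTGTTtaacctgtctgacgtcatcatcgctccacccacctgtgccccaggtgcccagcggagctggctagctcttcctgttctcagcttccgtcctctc

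The Foxa1 match runs from base -141 to base -135 before the start and is read on the opposite strand. A FOXA match on either strand is held by 17.8% of the 32536 promoter windows of this length. In Rab25 the match runs from base -102 to base -95, and 1.79% of the windows hold one. Searched on both strands for SOX (AACAAT), ETS (GGAAGT), KLF (CCACNCCC) and NKX2-1 (CTCAAG) letters as well, these windows held no other match. The windows of the members Sox2 and Elf3 held none of the 6 motifs. Nor did the window of Cldn4, which is also a reported Grhl2 target, or those of the listed targets Krt5, Krt14, Jag2 and Lcn2. A match is a run of letters, not a measured binding site.

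A probe set was tested when it reached a log2 value of 5 on at least 5 arrays, which kept 13678 probe sets, 10 of the 17 member probe sets and 7 of the 9 member genes. Where a gene has several probe sets, the one that averaged highest across the 35 arrays stands for it. Tests are from a limma fit of all 7 group means with Benjamini-Hochberg adjustment over all 13678 probe sets, and a gene is called at an adjusted p under 0.05. The 25th percentile of all values in the table is 3.38, and member values in that range have no reliable order.

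The median correlation of an array with the others of its group ran from 0.854 to 0.958, and the lowest were isograft day 25 replicate 5 (0.854) and native replicate 5 (0.894). Both of these arrays carried signal of squamous epithelium, the source of which was not tested. The keratin Krt13 was at 11.29 and 11.94 on them and at most 3.18 and 4.80 on the other arrays of their groups. Krt13 also exceeded 8 on 2 arrays each of the day 4 allografts and isografts, on 1 day 14 allograft and on 3 day 14 isografts. Thyroid signal was present too, with thyroglobulin (Tg) averaging 3.45 ± 0.29 in day 25 allografts, 13.31 ± 0.98 in day 25 isografts and 14.46 ± 0.13 in native trachea (SD, n = 5 each).

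**Figure D1:**
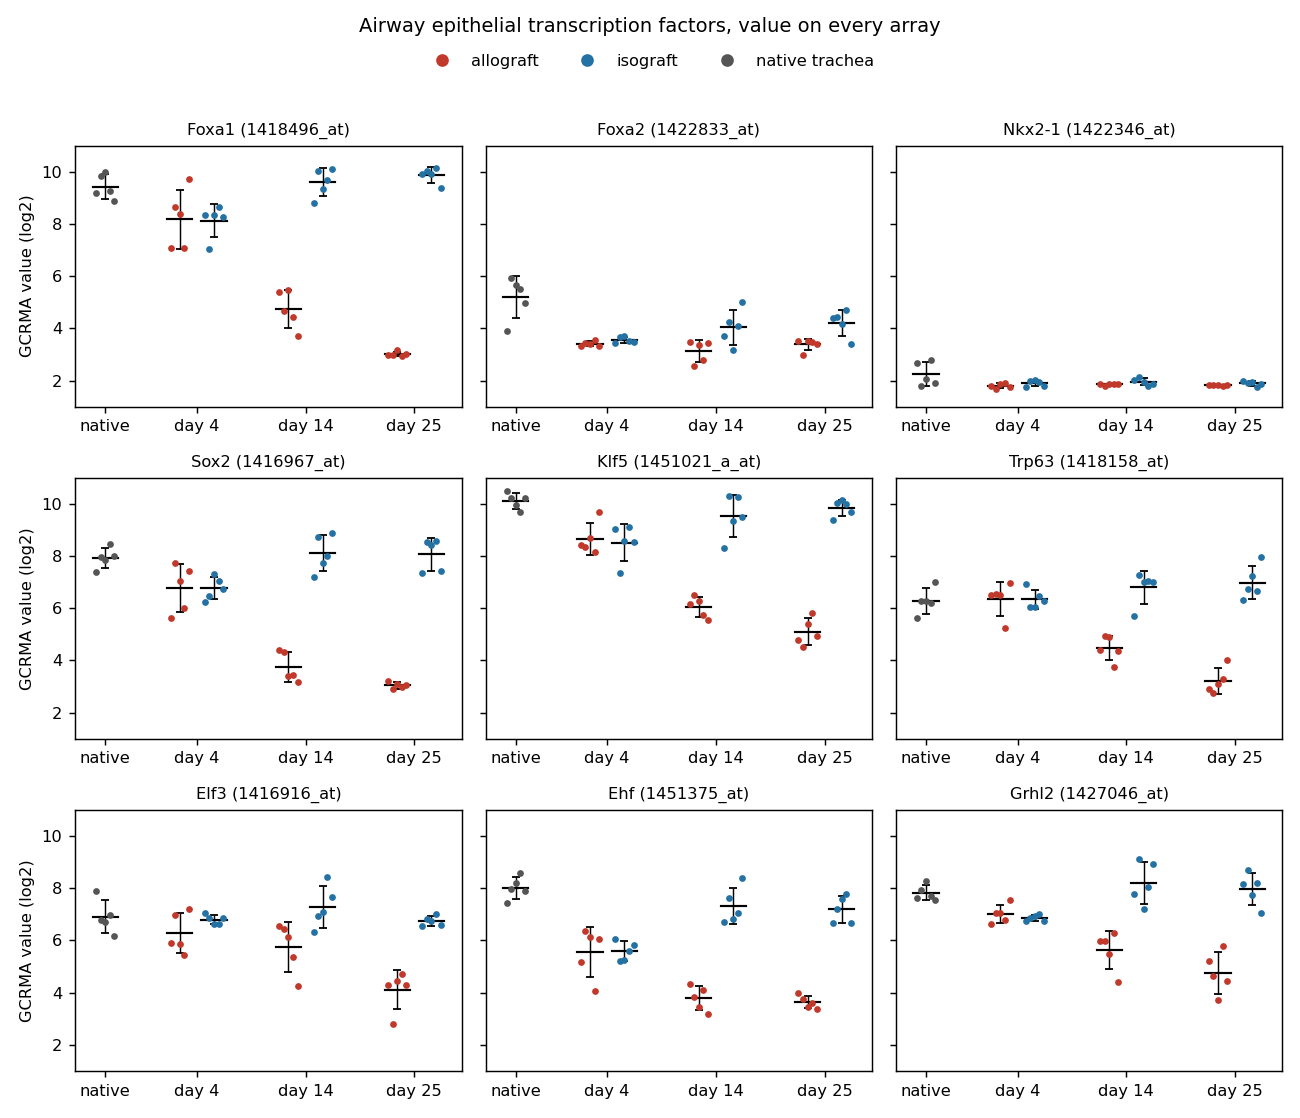
Log2 GCRMA value of the 9 transcription factor genes on every array (vertical axis), by group (horizontal axis: native trachea, then days 4, 14 and 25). Grhl2 is drawn by its second probe set, and each other gene by the probe set that stands for it. The probe set that stands for Grhl2 is not drawn here, and averaged 6.99 in day 25 allografts and 6.76 in day 25 isografts. Each point is 1 array, horizontal bars are group means and whiskers are SD of 5 arrays; Foxa1 sits between 2.95 and 3.18 in day 25 allografts and between 9.36 and 10.15 in day 25 isografts, while Nkx2-1 never exceeds 2.80.

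In allografts most of the airway factors fell between day 4 and day 14, while in isografts 4 of them rose over the same days. At day 4 none of the 7 tested genes was called between allografts and isografts. By day 14, 6 of 7 were lower in allografts, with Foxa1 28.9-fold, Sox2 20.6-fold, Ehf 11.6-fold, Klf5 11.3-fold, Trp63 5.00-fold and Elf3 2.90-fold lower. The seventh, Grhl2, gave different answers from different probe sets and is described apart. Over all tested probe sets, 8.36% were called lower in day 14 allografts.

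Foxa1, the forkhead factor, carried the largest of these differences. Its log2 values were 5.41, 4.67, 5.46, 4.43 and 3.71 in day 14 allografts, against 8.80, 10.04, 9.34, 9.67 and 10.09 in day 14 isografts. No array of one group reached the other, and 6.72% of all tested probe sets were separated in that way at day 14. The difference was -4.85 (SE 0.38, adjusted p = 3.02e-11). At day 25 the values were 2.98, 2.97, 3.18, 2.95 and 3.01 in allografts, against 9.90, 10.04, 9.90, 10.15 and 9.36 in isografts. This was a difference of -6.85 (SE 0.38, adjusted p = 4.65e-15), or 116-fold, and all 5 allograft arrays lay below the 25th percentile of the table, so the fold depends on how the background was modelled. The change between the days was itself called within allografts, where Foxa1 fell by 1.72 (SE 0.38, adjusted p = 0.00589).

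Across the 7 groups Foxa1 was ordered as follows. It averaged 9.87 ± 0.30 in day 25 isografts, 9.59 ± 0.54 in day 14 isografts and 9.43 ± 0.46 in native trachea (SD, n = 5 each), and neither isograft group was called against native trachea (adjusted p = 0.445 and 0.776). Below them were day 4 allografts at 8.17 ± 1.13 and day 4 isografts at 8.12 ± 0.63, which were not called against each other (adjusted p = 1). Day 14 allografts followed at 4.74 ± 0.73 and day 25 allografts were lowest at 3.02 ± 0.09.

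Sox2, the conducting-airway factor, was also lower at both times. At day 14 it read 4.40, 4.33, 3.41, 3.44 and 3.16 in allografts, against 7.20, 8.71, 7.75, 7.99 and 8.89 in isografts, a difference of -4.36 (SE 0.35, adjusted p = 5.66e-11). By day 25 it read 3.22, 2.89, 3.09, 2.98 and 3.05 in allografts, against 7.33, 8.54, 8.43, 8.58 and 7.41 in isografts. The groups stayed apart at both days, and the day 25 difference of -5.01 (SE 0.35, adjusted p = 9.5e-13) again had every allograft array below the 25th percentile of the table. Between day 14 and day 25 the allograft mean moved by -0.70 (SE 0.35, adjusted p = 0.411), which was not called.

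Klf5 was lower at both times while staying above the 25th percentile of the table. Day 14 values were 6.16, 6.50, 6.26, 5.73 and 5.55 in allografts, against 8.31, 10.28, 9.34, 10.24 and 9.50 in isografts (difference -3.49, SE 0.34, adjusted p = 1.7e-09). Day 25 values were 4.79, 4.52, 5.39, 5.82 and 4.96 in allografts, against 9.37, 10.02, 10.13, 9.98 and 9.69 in isografts (difference -4.74, SE 0.34, adjusted p = 9.53e-13). All allograft arrays lay below all isograft arrays on both days. A second Klf5 probe set was also called lower, by -1.90 (SE 0.34) at day 14 and -2.34 (SE 0.34) at day 25.

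Trp63, the basal cell factor, was lower at day 14 and lower again at day 25. It measured 4.42, 4.94, 4.89, 3.77 and 4.36 in day 14 allografts, against 5.69, 7.26, 6.999, 7.03 and 7.003 in day 14 isografts (difference -2.32, SE 0.33, adjusted p = 2.74e-06). In day 25 allografts it measured 2.93, 2.76, 3.11, 3.29 and 4.02, against 6.31, 6.75, 7.23, 6.67 and 7.95 in day 25 isografts (difference -3.76, SE 0.33, adjusted p = 1.24e-10). The groups did not overlap at either time. Of the day 25 allograft values, all but 4.02 lay below the 25th percentile of the table, a range without reliable order. The step from day 14 to day 25 within allografts was -1.25 (SE 0.33, adjusted p = 0.0257), a call that was lost without day 14 replicate 2 or 3 or day 25 replicate 1, 2, 3 or 4, with adjusted p between 0.0515 and 0.0957. Its highest values within day 25 isografts (7.95) and within native trachea (6.99) were on the 2 arrays with Krt13 above 11, and without those arrays 6 members were still called lower in day 25 allografts than in isografts. Both other Trp63 probe sets stayed between 2.62 and 4.08 on all arrays and below the filter.

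The ETS factors Ehf and Elf3 were lower at both times, Ehf by more. Ehf read 4.32, 3.83, 3.47, 4.09 and 3.18 in day 14 allografts, against 6.72, 7.61, 6.82, 7.04 and 8.37 in day 14 isografts (difference -3.54, SE 0.34, adjusted p = 2.08e-09). By day 25 allografts measured 3.99, 3.77, 3.46, 3.603 and 3.39, against 6.68, 7.22, 7.58, 7.79 and 6.66 in isografts, again a difference of -3.54 (SE 0.34, adjusted p = 1.12e-09). Both days showed full separation of the groups. The lowest Ehf value in allografts was below the 25th percentile of the table at day 14 (3.18) and just above it at day 25 (3.39). Elf3 overlapped at day 14, with 6.55, 6.44, 6.14, 5.37 and 4.24 in allografts against 6.32, 6.93, 7.08, 8.42 and 7.67 in isografts (difference -1.54, SE 0.41, adjusted p = 0.00609). By day 25 it no longer overlapped, at 4.31, 2.80, 4.43, 4.70 and 4.30 in allografts against 6.55, 6.82, 6.76, 6.99 and 6.60 in isografts (difference -2.64, SE 0.41, adjusted p = 9.2e-06). A second tested Ehf probe set was lower by smaller amounts, -1.03 (SE 0.31, adjusted p = 0.0177) at day 14 and -0.97 (SE 0.31, adjusted p = 0.0303) at day 25. With its 3 probe sets averaged, Ehf was lower by -1.84 at day 14 and -1.75 at day 25.

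At day 25, 6 of 7 tested genes were again lower in allografts, where 8.53% of all probe sets were called lower and 6.35% had every allograft array below every isograft array. All 6 were separated in that way, and 5 of the 6, Elf3 excepted, had been so at day 14. The median difference of the 7 genes was -3.49 at day 14 and -3.76 at day 25, beside 0.05 and 0.01 over all tested probe sets. At day 4 the 7 differences lay between -0.52 for Elf3 and 0.15 for Klf5. limma called none of them, where 0.600% of all probe sets were called in either direction. None had an unadjusted p under 0.05, while 5.34% of all probe sets did. The 95% confidence interval of the Foxa1 difference at day 4 ran from -0.72 to 0.83, and a change within it could not be told from 0 with 5 arrays a group.

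**Figure D2:**
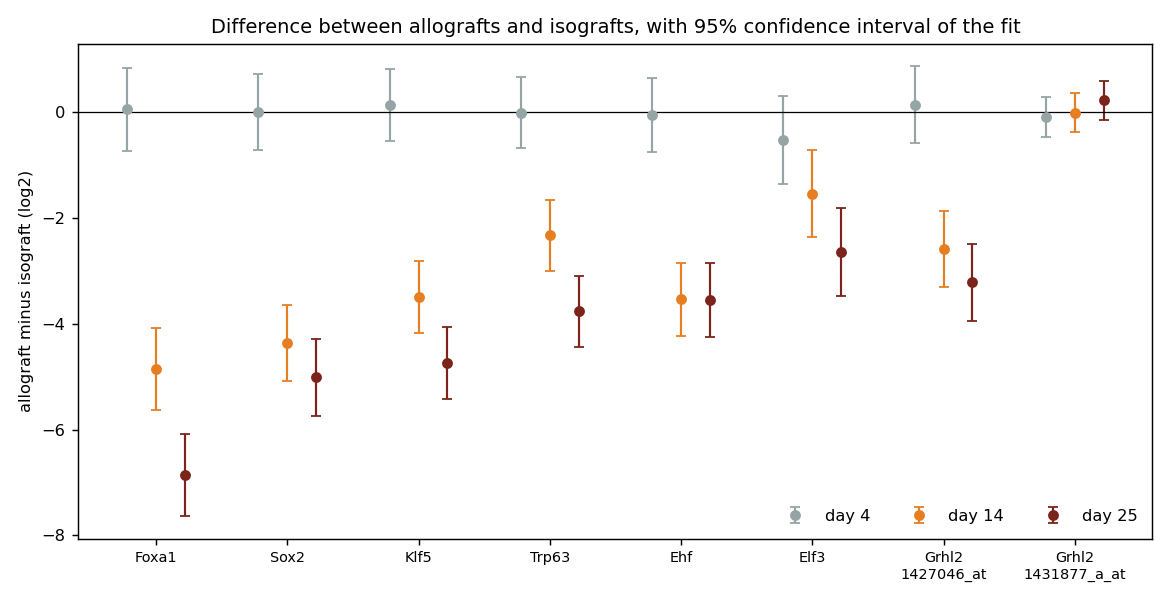
Allograft minus isograft difference in log2 GCRMA value (vertical axis) for the tested probe sets that represent each gene and for the second Grhl2 probe set (horizontal axis), at days 4, 14 and 25. Points are estimates of the limma fit with 5 arrays per group and whiskers are 95% confidence intervals; day 4 points lie between -0.52 and 0.15, and at day 25 Foxa1 reaches -6.85.

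The Grhl2 result depended on the probe set. Grhl2 has 4 probe sets, and the representing one averaged 7.03 ± 0.08 in day 14 allografts and 7.04 ± 0.18 in day 14 isografts (SD, n = 5 each; difference -0.00, SE 0.18, adjusted p = 0.992). The second Grhl2 probe set was lower in allografts at both times. It read 5.96, 5.99, 5.49, 6.27 and 4.42 in day 14 allografts, against 7.76, 9.11, 7.20, 8.03 and 8.92 in day 14 isografts (difference -2.58, SE 0.36, adjusted p = 1.72e-06). At day 25 it read 5.195, 4.62, 3.70, 5.80 and 4.45 in allografts, against 8.16, 8.71, 7.73, 8.21 and 7.04 in isografts (difference -3.22, SE 0.36, adjusted p = 1.95e-08), with no overlap on either day. At the representing probe set the day 25 difference was 0.23 (SE 0.18, adjusted p = 0.489).

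Against native trachea the same probe sets gave opposite calls in late allografts, and also in day 4 isografts. In day 4 isografts the second probe set averaged 6.86 ± 0.13, below native trachea, and the representing one 7.19 ± 0.33, above it (SD). That call of the second probe set was lost in some alternative limma fits, at adjusted p from 0.0512 to 0.074. The second probe set was lower than native trachea (7.82 ± 0.29) by -2.20 (SE 0.36, adjusted p = 7.69e-06) in day 14 allografts and by -3.07 (SE 0.36, adjusted p = 2.14e-08) in day 25 allografts, while in day 14 isografts it stood at 0.39 (SE 0.36, adjusted p = 0.427). At the representing probe set day 14 allografts were higher than native trachea (6.43 ± 0.35) by 0.61 (SE 0.18, adjusted p = 0.00755) and day 14 isografts by 0.61 (SE 0.18, adjusted p = 0.0136). At day 25 the allograft excess over native was 0.56 (SE 0.18, adjusted p = 0.0171), a call lost without native replicate 1 or without day 25 allograft replicate 3, at adjusted p = 0.0585 and 0.0587. The remaining Grhl2 probe sets stayed below the filter, one between 3.24 and 4.12 and the other between 2.21 and 3.16. Averaged over its 4 probe sets, Grhl2 was lower in allografts at day 25 by -0.75 (adjusted p = 0.000141). Which transcripts each probe set detects was not tested.

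**Figure D3:**
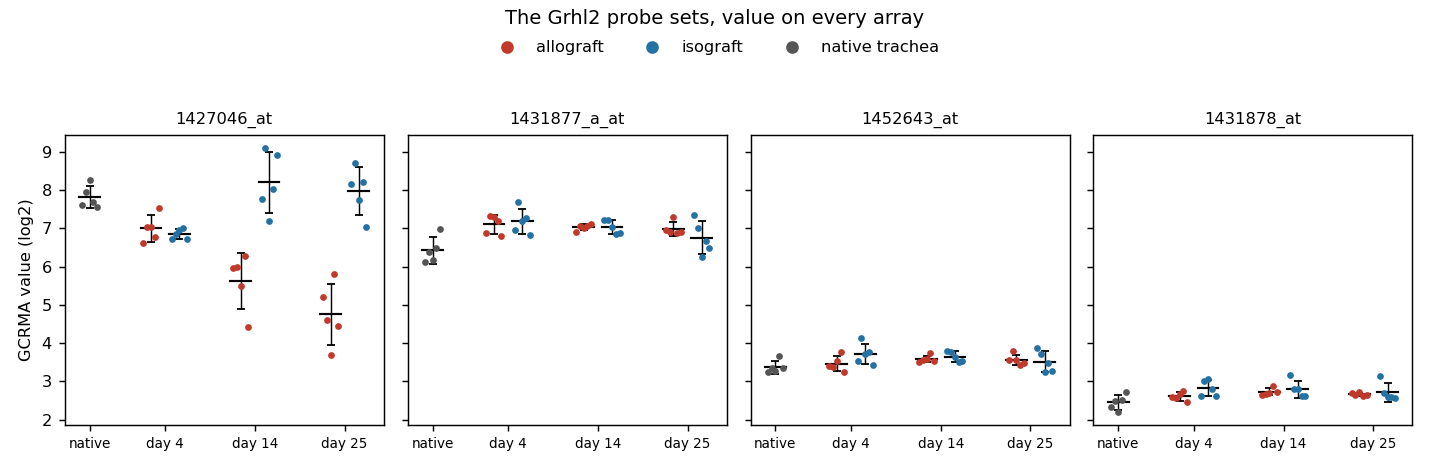
Log2 GCRMA values (vertical axis) of the 4 Grhl2 probe sets on every array, by group (horizontal axis), with group mean and SD of 5 arrays. In the leftmost panel, the second probe set, the day 25 allografts lie between 3.70 and 5.80 and the isografts between 7.04 and 8.71, whereas in the next panel, the representing probe set, the allografts lie between 6.87 and 7.30, within the isograft range of 6.27 to 7.35.

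Foxa2 and Nkx2-1 gave little signal. The Foxa2 probe set reached 5 on 4 of 35 arrays, 3 of them native, where it read 3.90, 5.93, 5.65, 5.50 and 4.96. It averaged 3.12 ± 0.42 in day 14 allografts and 4.04 ± 0.68 in day 14 isografts (SD, n = 5 each), and 3.39 ± 0.22 in day 25 allografts and 4.22 ± 0.50 in day 25 isografts. With no filter on low values, limma called Foxa2 lower in all 6 graft groups than in native trachea, with adjusted p between 1.59e-06 and 0.0307, and lower in allografts than isografts at day 14 (-0.93, adjusted p = 0.0358) but not at day 25 (-0.83, adjusted p = 0.0751). Nkx2-1 lay between 1.67 and 2.80 on every array. With no filter limma called it lower than native trachea in day 4, 14 and 25 allografts and in day 4 isografts, by -0.35 to -0.45 with adjusted p between 0.00607 and 0.027. That probe set was near background also in native trachea (2.25 ± 0.46), a tissue in which Tg averaged 14.46 and which is known to use this factor, so no level is read from it.

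Early after transplantation 4 of the factors were lower than in native trachea in both kinds of graft. Day 4 allografts were lower in Ehf by -2.46 (SE 0.34), Klf5 by -1.46 (SE 0.34), Foxa1 by -1.25 (SE 0.38) and Sox2 by -1.16 (SE 0.35), with adjusted p between 7.9e-07 and 0.0082. Day 4 isografts were lower in these 4 genes too, by -2.42, -1.60, -1.31 and -1.16 in that order, with adjusted p between 1.31e-06 and 0.00848. Of all probe sets 22.6% were called lower in day 4 allografts and 23.2% in day 4 isografts, and both comparisons use the same 5 native arrays. The second Klf5 probe set was not called in either, at -0.21 (adjusted p = 0.657) in allografts and -0.38 (adjusted p = 0.381) in isografts. The representing Grhl2 probe set was the 1 member called higher, by 0.68 in allografts (adjusted p = 0.00319) and 0.76 in isografts (adjusted p = 0.00121), where 22.2% and 21.1% of all probe sets were higher. Trp63 differed from native trachea by 0.07 in either graft (adjusted p = 0.885 in allografts and 0.879 in isografts). Elf3 differed by -0.63 (adjusted p = 0.212) in allografts and -0.11 (adjusted p = 0.852) in isografts.

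Isografts then rose. From day 4 to day 14 they rose in Ehf by 1.72 (SE 0.34, adjusted p = 0.000417), Foxa1 by 1.47 (SE 0.38, adjusted p = 0.00536), Sox2 by 1.34 (SE 0.35, adjusted p = 0.00594) and Klf5 by 1.02 (SE 0.34, adjusted p = 0.0265), with 9.18% of all probe sets called higher. The Klf5 call was lost without day 4 replicate 2, or without day 14 replicate 2 or 4, at adjusted p from 0.0851 to 0.115, and its difference without day 4 replicate 2 was 0.73. It was also lost with the compared arrays fitted alone (adjusted p = 0.102), and the second probe sets of Klf5 at 0.87 (adjusted p = 0.0683) and Ehf at 0.46 (adjusted p = 0.324) were not called. The second Grhl2 probe set was called higher, averaging 6.86 ± 0.13 in day 4 isografts and 8.20 ± 0.80 in day 14 isografts (SD, n = 5 each). At day 14 no member gene was called lower than native trachea in isografts at its representing probe set, where 16.7% of all probe sets were, and 1 was higher, the representing Grhl2 probe set, beside 12.1% of all. Among the others Ehf was closest, at -0.70 (SE 0.34, adjusted p = 0.123). Without day 14 isograft replicate 5, Ehf was called lower by -0.96 (adjusted p = 0.0378). At the second Ehf probe set, day 14 isografts were called lower than native trachea, by -0.95 (SE 0.31, adjusted p = 0.0235), and day 25 isografts by -1.08 (SE 0.31, adjusted p = 0.0183). At day 25 none of the 7 genes was called against native trachea at its representing probe set. Of all probe sets 16.1% were called in either direction. The unadjusted limma p was under 0.05 for 2 of the 7 genes, beside 31.3% of all probe sets. Between day 14 and day 25 of the isografts limma called no probe set at all. No member gene had an unadjusted p under 0.05 there, while 6.45% of all probe sets did.

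Allografts fell over the same interval. From day 4 to day 14 they were lower in Foxa1 by -3.44 (SE 0.38), Sox2 by -3.02 (SE 0.35), Klf5 by -2.62 (SE 0.34), Trp63 by -1.87 (SE 0.33) and Ehf by -1.77 (SE 0.34), with adjusted p between 2.97e-07 and 0.000762 and 4.67% of all probe sets called lower. Elf3 moved by -0.53 (SE 0.41, adjusted p = 0.494). The change in the allograft-isograft difference from day 4 to day 14 was itself called for those 5 genes, between -2.32 (SE 0.47) for Trp63 and -4.91 (SE 0.54) for Foxa1, where 3.83% of all probe sets were called lower. For Elf3 that change was -1.02 (SE 0.57, adjusted p = 0.367).

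From day 14 to day 25 the allografts fell further in 3 of the 7 genes, with 1.57% of probe sets called lower: Foxa1, Trp63 and Elf3. The Elf3 step was -1.64 (SE 0.41, adjusted p = 0.0161), and it was lost without day 14 replicate 1, 2 or 3 or day 25 replicate 2, at adjusted p from 0.0563 to 0.0786, and with the compared arrays fitted alone, at 0.121. Only the Foxa1 step was called in every fit that left out 1 array. The further change in the allograft-isograft difference was not called by limma for any of the 7 genes. Of all probe sets 1.07% were called in either direction. The unadjusted p was under 0.05 for 3 of the 7 genes, beside 8.86% of all probe sets. Foxa1 was closest, at -2.002 (SE 0.54, adjusted p = 0.0635), and it was called without day 14 allograft replicate 5 (-2.26, adjusted p = 0.0219). Set against native trachea, 6 of 7 genes were lower in day 14 allografts (24.4% of probe sets) and 6 of 7 in day 25 allografts (18.3%), and Grhl2 at its representing probe set was higher in both (21.7% and 17.7% of probe sets), whereas its second probe set was lower in both, as given above. Elf3 stood at -1.16 (SE 0.41, adjusted p = 0.0202) at day 14. That Elf3 call was lost without native replicate 1 or day 14 allograft replicate 4 or 5, at adjusted p from 0.0513 to 0.105, and with the compared arrays fitted alone, at 0.0528. Without replicate 5 the difference was -0.78.

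Other transcription factors of epithelium were followed in a list of 26 genes, 20 of them measured and 10 tested. At day 14, 6 of the 10 were lower in allografts and none higher, with a median difference of -0.98. The airway factor Sox21 was lower by -2.90 (SE 0.52, adjusted p = 8.29e-05) and Foxj1, the master regulator of motile cilia, by -2.76 (SE 0.45, adjusted p = 2.42e-05). At day 25, 5 of 10 were lower, among them Myb by -3.56 (SE 0.53, adjusted p = 5.49e-06) and Foxj1 by -3.40 (SE 0.45, adjusted p = 6.95e-07). Not called at day 14 were, among others, Klf4 at 0.26 (adjusted p = 0.667) and Cebpa at -0.26 (adjusted p = 0.776). Of 10 tested mesenchymal transcription factors, none was lower on either day and Snai1 alone was higher at day 14, by 1.23 (SE 0.35, adjusted p = 0.0124). Zeb1 differed by -0.09 (adjusted p = 0.838) and Twist1 by 0.33 (adjusted p = 0.535) at day 14.

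**Figure D4:**
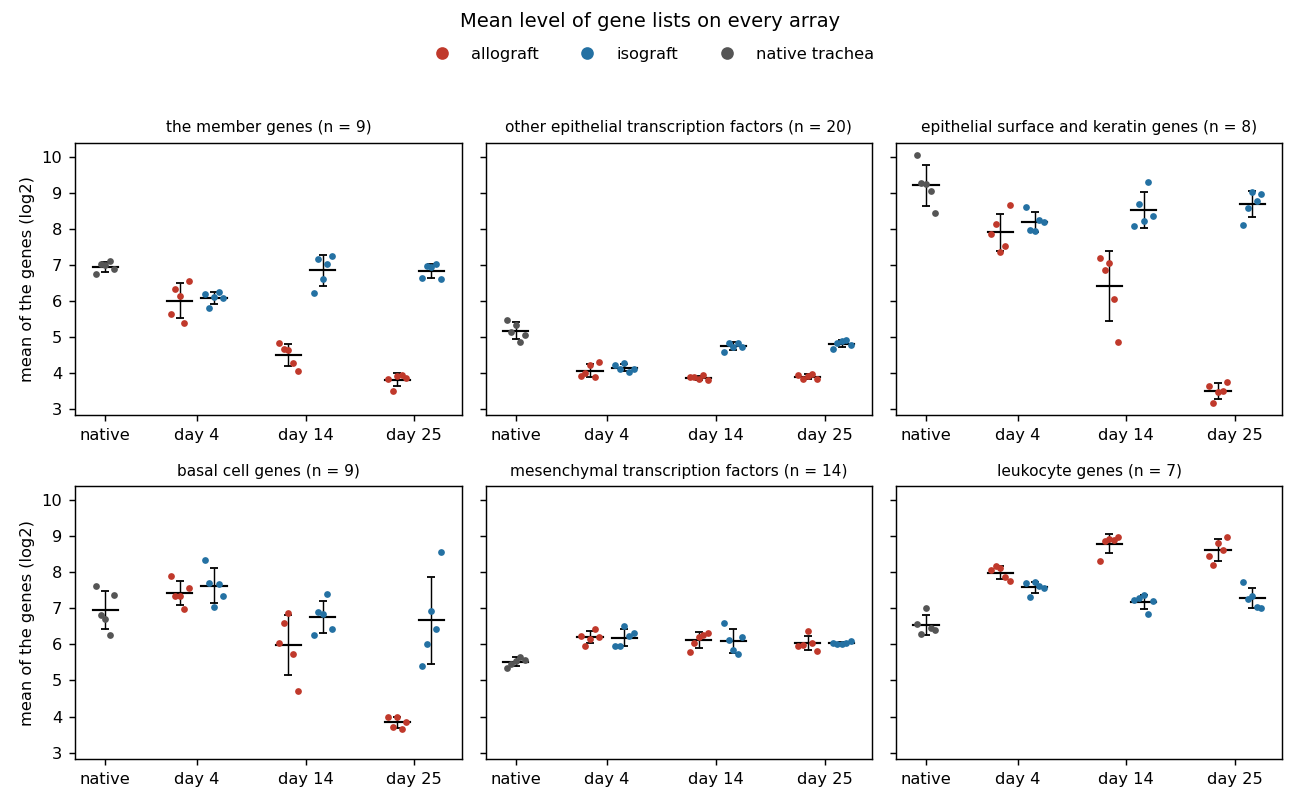
Mean log2 GCRMA value of the genes of 6 lists (vertical axis) on every array, by group (horizontal axis), with group mean and SD of 5 arrays. The 9 factors average 3.81 in day 25 allografts and 6.84 in day 25 isografts, the mesenchymal factors 6.04 and 6.04, and the leukocyte genes 8.61 and 7.28.

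The genes reported as targets of these factors fell as well, more of them by day 25 than by day 14. Of 13 tested, 8 were lower in day 14 allografts and 13 in day 25 allografts, with medians of -2.07 and -4.25. The 2 that differed most were secretory products reported to need Foxa or Nkx2-1 factors. Scgb3a2, a secreted airway protein, averaged 5.23 ± 0.99 in day 14 allografts and 13.67 ± 0.09 in day 14 isografts (SD, n = 5 each; difference -8.44, SE 0.56, adjusted p = 5.62e-13). Scgb1a1, the club cell protein, was lower by -6.85 (SE 0.53) at day 14 and by -9.76 (SE 0.53) at day 25. Sftpd, a collectin of airway fluid, was lower by -5.03 (SE 0.43) and -6.81 (SE 0.43). The target list shares genes with other lists counted here. Scgb1a1, Scgb3a2 and Muc5b are also in the secretory list and Foxj1 in the ciliated list. Krt5 and Krt14 are also in the basal list, and Cdh1 and Cldn4 in that of epithelium in general. The counts of these lists are therefore not separate results.

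Genes reported as Grhl2 targets were lower by day 25. Rab25, the vesicle-traffic GTPase whose promoter is printed above, averaged 4.16 ± 0.59 in day 14 allografts and 6.22 ± 0.84 in day 14 isografts (difference -2.07, SE 0.40, adjusted p = 0.000223). Cdh1, the epithelial cadherin, was lower by -2.23 (SE 0.28, adjusted p = 2.62e-07) at day 14 and -5.06 (SE 0.28, adjusted p = 2.81e-15) at day 25. Cldn4, a tight junction claudin, was not called at day 14 (0.01, SE 0.49, adjusted p = 0.99) and was lower at day 25 (-1.49, SE 0.49, adjusted p = 0.0357).

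Keratins reported to depend on Trp63 were not called at day 14. While Trp63 was 5.00-fold lower, Krt5 averaged 8.52 ± 1.301 in allografts and 9.06 ± 0.76 in isografts (difference -0.54, SE 0.59, adjusted p = 0.611). Krt14 averaged 9.21 ± 1.32 in allografts and 8.72 ± 0.80 in isografts (difference 0.50, SE 0.78, adjusted p = 0.747). At day 25 both were lower, Krt5 by -4.98 (SE 0.59, adjusted p = 7.66e-08) and Krt14 by -3.56 (SE 0.78, adjusted p = 0.00109). Among 9 tested basal cell genes, 4 were lower and 1 higher at day 14. The basal keratin Krt15 was lower by -3.93 (SE 0.62, adjusted p = 1.41e-05) and the hemidesmosome collagen Col17a1 by -1.60 (SE 0.51, adjusted p = 0.023), while the injury keratin Krt17 was higher by 1.48 (SE 0.52, adjusted p = 0.0425). At day 25, 8 were lower, with Krt15 at -5.69 (SE 0.62, adjusted p = 1.35e-08). Secretory and ciliated lists were lower as a whole on both days, with 12 of 12 and 4 of 4 tested genes. Their median differences were -5.70 and -3.15 at day 14, and -8.03 and -3.17 at day 25.

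Of 15 tested genes of epithelium in general, 11 were lower in day 14 allografts and 15 in day 25 allografts. Each array was also expressed relative to the mean of 8 epithelial surface and keratin genes (Epcam, Krt8, Krt18, Krt19, Cldn7, Spint1, Spint2 and St14). That mean was 6.40 ± 0.97 in day 14 allografts and 8.53 ± 0.49 in day 14 isografts (SD, n = 5 each). Relative to it, Foxa1 was still lower by -2.73 (SE 0.38, adjusted p = 7.28e-08), Sox2 by -2.24 (SE 0.42, adjusted p = 7.6e-06), Ehf by -1.41 (SE 0.42, adjusted p = 0.00192) and Klf5 by -1.37 (SE 0.36, adjusted p = 0.00047) at day 14. Only 0.870% of all probe sets were called lower on this scale, and 94.6% were higher, among them Grhl2 at its representing probe set, by 2.12 (SE 0.44, adjusted p = 3.15e-05), and the second Ehf probe set, by 1.09 (SE 0.45, adjusted p = 0.0196). The second probe sets of Grhl2 at -0.46 (adjusted p = 0.296) and Klf5 at 0.22 (adjusted p = 0.581) were not called. Trp63 at -0.20 (SE 0.40, adjusted p = 0.633) and Elf3 at 0.59 (SE 0.31, adjusted p = 0.0696) were not called on this scale, though with array weights both were, at -0.48 and 0.72. With all probe sets of a gene averaged, the Klf5 and Ehf calls were not made (-0.57, adjusted p = 0.112, and 0.29, adjusted p = 0.494).

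Day 14 allograft replicate 5 had the lowest epithelial mean of its group, 4.85, and the lowest Foxa1, Sox2, Klf5, Ehf and Elf3. Without it, the relative differences were -2.86 for Foxa1, -2.48 for Sox2, -1.65 for Ehf and -1.63 for Klf5, and all 4 were called. At day 25 the epithelial mean was 3.51 ± 0.22 in allografts and 8.69 ± 0.36 in isografts, so the yardstick itself was close to background. Relative to it, Foxa1 was lower by -1.68 (SE 0.38, adjusted p = 5.85e-05), where 0.227% of probe sets were lower and 99.3% higher. Elf3 at 2.54, Ehf at 1.63, Trp63 at 1.41 and Grhl2 at 5.403 were higher, and Sox2 at 0.16 (adjusted p = 0.709) and Klf5 at 0.43 (adjusted p = 0.234) were not called. Foxa1 (3.02), Sox2 (3.04), Trp63 (3.22) and Ehf (3.64) were themselves low in day 25 allografts. Elf3 (4.11), Klf5 (5.09) and the representing Grhl2 probe set (6.99) lay higher. Where member and yardstick are both near background in allografts, the relative difference mostly restates their isograft levels. These day 25 calls are therefore not read as changes beyond those of the epithelial genes. At day 4 limma called no member on this scale, where 0.336% of all probe sets were called in either direction. No member had an unadjusted p under 0.05, while 2.78% of all probe sets did.

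**Figure D5:**
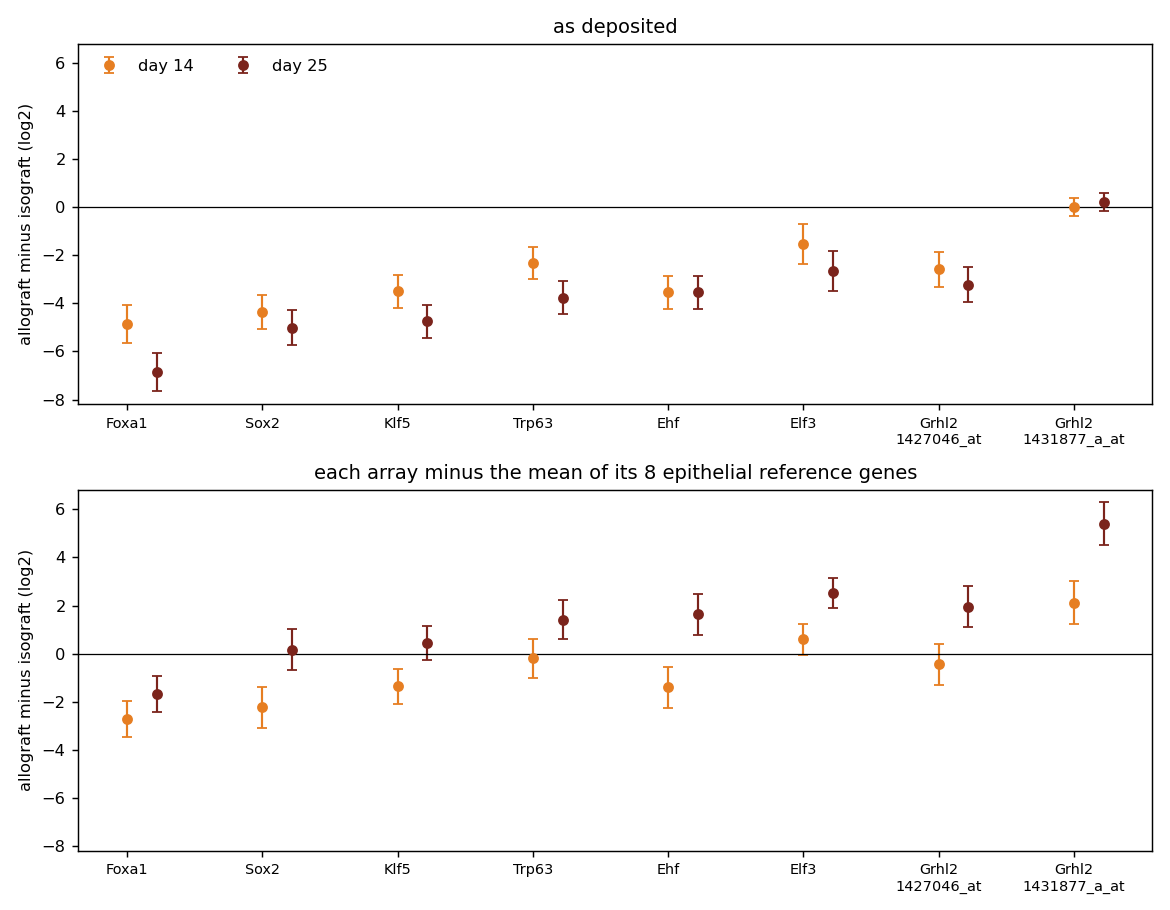
Allograft minus isograft difference (vertical axis, log2) of the members (horizontal axis) at days 14 and 25, as deposited (upper panel) and after each array's mean of 8 epithelial genes was subtracted (lower panel). Points are limma estimates with 95% confidence intervals, 5 arrays per group. In the lower panel Foxa1 lies at -2.73 and -1.68, Elf3 at 0.59 and 2.54. The day 25 points there rest on an epithelial mean close to background in allografts.

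Signals of other tissues of the graft moved beside the factors. Leukocyte genes averaged 8.80 ± 0.27 in day 14 allografts and 7.19 ± 0.20 in day 14 isografts (SD, n = 5 each), and 5 of 7 were higher in allografts on days 14 and 25, led by Gzmb at 4.51 (SE 0.28) and 3.32 (SE 0.28). Of 4 tested thyroid and parathyroid genes, 2 were lower at day 14, Tg by -8.36 (SE 0.55) and the parathyroid hormone gene Pth by -8.95 (SE 0.86), and both again at day 25. Of 8 tested squamous genes, 1 was called lower on each day, Calml3, while the list mean ran over 3.55 to 5.54 in day 14 allografts and 3.92 to 6.96 in day 14 isografts. Skeletal muscle genes were lower at day 14 in 5 of 5 and cartilage genes in 5 of 7, with none of either called at day 25. In smooth muscle 2 of 5 were lower at day 14 and 3 of 5 at day 25, and of 3 Schwann cell genes 0 and 1 were. The part of these tissues in the members' values was not tested.

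Across the 7 group means, the genes closest to each factor were sought among 8299 non-member genes, by the root mean square distance between profiles centred on their own mean. Foxa1 was nearest to Sftpd (0.21), Cbr2 (0.39) and Epcam (0.46). Sox2 was nearest to Celsr1 (0.30), Esrp1 (0.34) and Aqp4 (0.41), and Klf5 to Celsr1 (0.19), Esrp1 (0.21) and Wnt4 (0.34). Trp63 was nearest to Mapk13 (0.17), Erbb3 (0.26) and Ptprf (0.29), and Elf3 to St14 (0.27), Shroom3 (0.27) and Evpl (0.28). For Ehf the nearest were Isl1 (0.24), Baiap2l1 (0.25) and Cldn3 (0.31). The second Grhl2 probe set was nearest to Eppk1 (0.19), Tjp3 (0.22) and Cd24a (0.25), whereas the representing one was nearest to Rps20 (0.05), Mmp24 (0.06) and Fam120a (0.06). Among the members, Sox2 and Klf5 were the closest pair (0.27).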

How the data were processed

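RNA of 35 tracheal samples was measured on 1-colour Affymetrix arrays, 5 per group, in 7 groups taken from the labels. The authors deposited log2 values made with GCRMA 1.1.3, per the submitters' processing notes, which models and subtracts background and summarises probes, so low values and folds against them depend on that model. The deposited values ran from 0.317 to 15.53 and array medians from 5.07 to 5.30; depth has no meaning here and precision rests on the number of arrays. No further normalization was applied. Probe sets were named by the platform annotation. limma 3.58.1 in R 4.3.3 fitted 7 group means to the 13678 of 22626 probe sets at log2 5 or more on at least 5 arrays, and was tested on simulated data. The rule for named genes took all members, the 2 called genes per other list and direction that differed most, and the 3 nearest genes per member; not all of those from the other lists are printed. The 8 genes of the relative scale, the members and all lists were chosen with earlier results of these data known, so they are not independent evidence. Sftpd, Cdh1, Rab25, Cldn4, Krt14, Klf4, Cebpa, Zeb1 and Twist1 were named after their values were seen. Alternatives were other filters and scalings, array weights, an intensity trend, a replicate block, averaged probe sets, the compared arrays alone, and leaving out arrays.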

Additional observations from a re-analysis of the deposited data

Results flagged for a closer look

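Within a group of 5 arrays, a value was marked when the gap between it and its nearest neighbour took more than 0.71 of the group's range. That held for 15 of 119 combinations of group and member probe set, and chance alone marks about 1 in 20. For Foxa1 these were isograft day 4 replicate 2 at 7.03, below its group, and allograft day 25 replicate 3 at 3.18, above its group. Allograft day 25 replicate 2 stood low in Foxa2 at 3.00 and in Elf3 at 2.80. Trp63 was low in isograft day 14 replicate 1 at 5.69 and in allograft day 4 replicate 4 at 5.23. The second Ehf probe set was high in isograft day 4 replicate 1 at 5.53 and in isograft day 14 replicate 5 at 6.62. The representing Grhl2 probe set was high in allograft day 25 replicate 3, at 7.30. The remaining 6 values were on probe sets below the filter: one of Grhl2 at 3.14 in isograft day 25 replicate 1 and 2.88 in allograft day 14 replicate 4, the other of Grhl2 at 3.74 in allograft day 14 replicate 4 and 3.65 in native replicate 4, and one of Trp63 at 3.81 in isograft day 14 replicate 4 and 3.94 in native replicate 4.

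The allograft-isograft difference changed between day 4 and day 14 by the fit's test of that change for 7 member probe sets of 6 genes. The changes were -4.91 for Foxa1, -4.36 for Sox2, -3.64 for Klf5 and -2.08 for its second probe set, -3.49 for Ehf, -2.72 for the second Grhl2 probe set and -2.32 for Trp63.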

How the results depend on the processing

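The allograft-isograft counts at days 4, 14 and 25 were 0, 6 and 6 in every fit that left out 1 array, and among the other alternatives one differed, day 14 with no filter, at 7 with Foxa2 added. With probe sets averaged the counts were also 6 and 6, but with Grhl2 called lower, by -0.68 at day 14. Trp63 did not pass the filter when averaged, so 6 genes were tested. With no filter, isografts had 2 member genes called against native trachea at day 14, in place of 1, and 1 at day 25, in place of 0, the added gene being Foxa2; without both arrays that stand apart the day 25 count was also 1, Grhl2 at 0.54 (adjusted p = 0.0434). The change of the allograft-isograft difference from day 14 to 25 counted 1, Foxa1, with the stricter filter and with the compared arrays alone, in place of 0. Relative to epithelial genes, day 14 counted 3 in place of 5 with probe sets averaged. Averaging also turned the sign of Grhl2 in day 25 allografts against isografts (-0.75), and in day 14 (-0.28) and day 25 (-0.53) allografts against native trachea, and of Ehf relative to epithelial genes at day 14 (0.29).

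Leaving out 1 array gave counts from 1 to 3 for allografts day 25 against day 14, 3 to 4 for isografts day 14 against day 4, 6 to 7 for allografts against native trachea at day 14 and at day 25, 1 to 2 for isografts against native at day 14, 0 to 1 for the later change of the difference, and 5 to 6 for the relative scale at day 14; the other counts stayed as reported. The call of the second Grhl2 probe set in day 4 isografts against native trachea was lost in 5 of the alternatives, at adjusted p from 0.0512 to 0.074. Centring each array on its median put the median difference of all probe sets in that comparison at 0.12, in place of -0.02, and in day 14 allografts and isografts against native trachea at 0.06 and 0.08, in place of -0.07 and -0.09.

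With the replicate number as a block, every member count was the same, 6 at day 14 and 6 at day 25 included; the numbers were not taken as pairs, because the labels name nothing shared and 8 of 15 same-numbered pairs, not all, correlated above 0.1 (range -0.422 to 0.467). At day 4, 4 of 5 did, each best with its own number, and over all days 7 of 15 allografts correlated best with their own number, a hint of pairing at day 4 from the data alone. Over all probe sets, counts moved by more than 1.5 times in few fits. With compared arrays alone, 51 were called at day 4 in place of 82. With array weights, 3549 were called in isografts day 25 against native in place of 2203, 1843 in allografts day 14 against day 4 in place of 1093, 1433 for the earlier change of the difference in place of 873, and 239 on the relative scale at day 4 in place of 46. Other such moves came from testing more or fewer probe sets or from leaving out an array.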
